A study of Ocimum americanum with 4 samples.

Results

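The genes described here are those annotated to the synthesis of cell-wall polysaccharides in leaves of *O. americanum* var. *pilosum*, an aromatic basil that is sensitive to chilling. They were chosen as the unigenes, each the sequence kept for a gene of a de novo assembly, whose best Swiss-Prot description contains any of 8 terms, namely cellulose synthase, COBRA, glucomannan, glucuronoxylan, IRX, xylosyltransferase, galacturonosyltransferase and callose synthase. These terms took 199 of the 42816 unigenes, and the 199 matched 80 different Swiss-Prot proteins. This rule used no expression values, but it was set with earlier results of these data known. The chilling group consisted of 30-day-old plants held for 12 h at 4 °C, and the control group of plants of the same age that stayed at the growth temperature, which the sources state with a small difference. Both groups were of the same variety, none carried a transgene, and each group gave 2 leaf libraries, described by the article as biological replicates.

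Plant cells surround themselves with cellulose microfibrils, made at the plasma membrane by complexes of cellulose synthase (CesA) proteins, in a matrix of xylans, mannans and pectins made in the Golgi apparatus. Different CesA proteins work in the thin primary walls of growing cells and in the thick secondary walls of the xylem and of fibres. Callose, a glucan laid down at plasmodesmata, in sieve plates, in new cell plates and at wounds, is made by a separate family of large callose synthases.

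The level of a unigene was measured as FPKM (fragments per kilobase of unigene, relative to the mapped reads of the library). The FPKM of all unigenes summed to 773457 and 772255 in the chilling libraries, against 875599 and 874864 in the control libraries. Scaling to mapped reads, as in FPKM, does not give libraries equal sums. Chlorophyll a-b binding proteins and the Rubisco small subunit, which mark leaf mesophyll, together reached 15166 and 15153 FPKM after chilling and 41720 and 41594 FPKM in the control. These 18 unigenes were abundant in all 4 libraries, as leaf tissue would have them, and 15 of them were lower after chilling. Fewer cells of a type and less RNA per cell cannot be told apart in such tissue libraries.

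Of the 199 unigenes, 164 had a mean of at least 1 FPKM over the 4 libraries and were tested with limma, and 35 were below this level. A unigene was called when its Benjamini-Hochberg adjusted p over all 33036 tested unigenes was at most 0.01 and its mean FPKM differed at least 2-fold. By this rule 17 wall-synthesis unigenes were higher after chilling (10.4% of those tested) and 21 were lower (12.8%). Among all tested unigenes 11.9% were higher and 13.8% were lower, 25.6% in all, against 23.2% of the wall-synthesis set, so the set as a whole was called about as often as the rest of the transcriptome. At an unadjusted p under 0.05 from limma, a threshold given below where a count of calls was 0, 34.2% of all tested unigenes were higher and 33.4% were lower, so that counts at it run high for any set. A further 35 passed the adjusted p but changed less than 2-fold, 16 upward and 19 downward. The median log2 change of the set (a positive value means higher after chilling, on values of log2(FPKM + 1)) was -0.11, and that of all tested unigenes was -0.00. The summed level of the 199 unigenes was 2058 and 2039 FPKM after chilling, against 2015 and 2004 FPKM in the control. The total thus moved little, while single families within it moved in both directions, as the plot of changes by family shows.

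**Figure D1:**
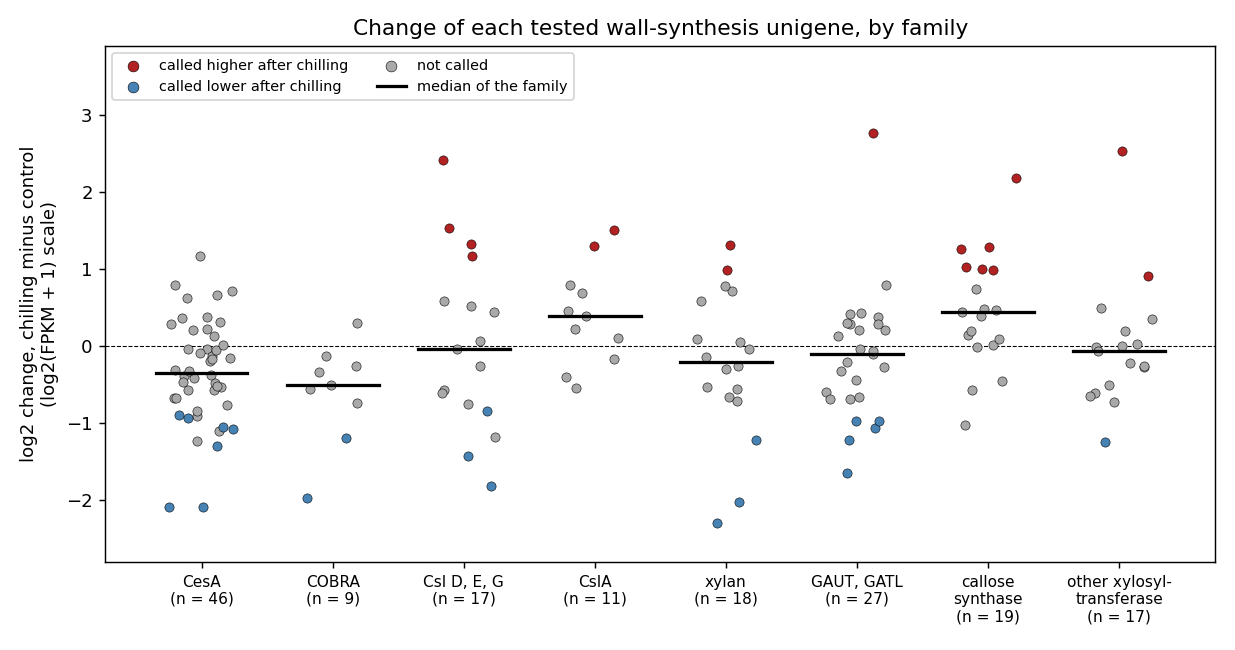
Log2 change (chilling minus control, of log2(FPKM + 1)) of each of the 164 tested wall-synthesis unigenes, in 8 families. Points are unigenes (red called higher, blue called lower, grey not called) and bars are family medians. The calls among callose synthases and CslA proteins lie above 0, and those among CesA and COBRA proteins lie below 0.

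The scaling matters for counts of this kind. When every library was rescaled to the same sum (TPM), the median change of all tested unigenes moved to 0.14 and that of the wall-synthesis set to -0.01, and 23 members were higher and 17 lower. All tested unigenes moved likewise, to 14.7% higher and 10.5% lower. Division by a median ratio, which put the median of all unigenes at 0.01, gave 17 higher and 20 lower. The families below are given in FPKM as deposited, with the TPM count where it differs in direction.

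The callose synthases stood out in level. The 34 unigenes of this family summed to 407 and 405 FPKM after chilling, against 238 and 233 FPKM in the control, a ratio of 1.72. Of the 19 that were tested, 6 were higher after chilling (31.6%, against 11.9% of all tested unigenes) and none was lower. At an unadjusted p under 0.05 from limma the counts were 11 higher and 1 lower, against 34.2% and 33.4% of all. The other 15 were too weak to be tested, and when all 34 were tested without a filter, 5 were higher and 2 lower. At an adjusted p of 0.05 there were 6 higher and 1 lower. The family median was 0.44.

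Most of the increase lay in unigenes matched to CALS3, a callose synthase that acts at plasmodesmata in Arabidopsis. The most abundant of them, Ob_32659, had 112 and 111 FPKM after chilling, against 46.7 and 44.6 FPKM in the control. Its neighbour in the assembly numbering, Ob_32660, had 63.0 and 62.5 FPKM after chilling, against 30.1 and 30.4 FPKM in the control. The third, Ob_33413, had 47.9 and 49.8 FPKM after chilling, against 24.2 and 23.4 FPKM in the control. In each case both chilling libraries lay far above both control libraries, and the replicates of a group differed by a few percent. The log2 changes were 1.26 ± 0.04 (SE, adjusted p = 5.4e-07, limma) for Ob_32659, 1.03 ± 0.04 (adjusted p = 2.1e-06) for Ob_32660 and 1.01 ± 0.05 (adjusted p = 6.1e-06) for Ob_33413. CALS3 was the match of 9 unigenes in all, and the other 6 were each below 2 FPKM in all 4 libraries.

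CALS1, which makes callose at the cell plate and at plasmodesmata in Arabidopsis, gave the largest change of the family. Its unigene Ob_36568 had 24.4 and 24.1 FPKM after chilling, against 4.22 and 4.95 FPKM in the control (log2 change 2.18 ± 0.10, adjusted p = 4.3e-06, limma). A different CALS1 unigene, Ob_34476, had 9.22 and 8.55 FPKM after chilling, against 8.75 and 9.13 FPKM in the control, and its libraries overlapped. CALS2 (Ob_33047) had 8.90 and 8.45 FPKM after chilling, against 2.89 and 3.0 FPKM in the control (log2 change 1.29 ± 0.12, adjusted p = 1.4e-04). The remaining call was a weakly expressed CALS9 unigene (Ob_31103), at 1.92 and 2.27 FPKM after chilling and 0.76 and 0.37 FPKM in the control.

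The other callose synthases named here were not called. CALS12, the enzyme of wound and pathogen callose in Arabidopsis, had 21.3 and 19.1 FPKM after chilling and 18.4 and 17.7 FPKM in the control in its tested unigene Ob_35245 (log2 change 0.15, adjusted p = 0.11, limma). CALS10, needed for cell plate formation in Arabidopsis, had 27.8 and 28.8 FPKM after chilling and 22.0 and 20.9 FPKM in the control in Ob_32102 (log2 change 0.39, adjusted p = 0.0012), below the 2-fold threshold. The weaker CALS10 unigenes Ob_32103 and Ob_03584 had log2 changes of -0.45 and -0.57 (adjusted p = 0.1 and 0.18, limma). CALS7, the sieve plate enzyme of Arabidopsis, had 2 tested unigenes, Ob_20354 and Ob_28761, with log2 changes of 0.75 and 0.47. Both passed the adjusted p (0.0055 and 0.0085, limma) but not the 2-fold threshold. The ratio of Ob_20354, 1.97, was close to the 2.06 and 2.08 of the called CALS3 unigenes Ob_33413 and Ob_32660. The unigenes of CALS7, CALS10 and CALS12, and Ob_34476 of CALS1, were picked after their values were seen, because of the known role of each enzyme.

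The calls of the 3 CALS3 unigenes and of CALS1 were kept in all 14 alternative settings. CALS2 lost its call when either chilling library was left out, and CALS9 lost it in 9 of the alternatives, including a pseudocount of 0.1. The summed level of a list of phloem markers moved the same way, at 638 and 639 FPKM after chilling, against 222 and 216 FPKM in the control, with 4 of its 19 tested unigenes higher and 2 lower and none at 0 in all 4 libraries. Most of that sum came from unigenes named APL, a transcription factor of the phloem in Arabidopsis, with Ob_26657 at 359 and 360 FPKM after chilling and 51.8 and 53.4 FPKM in the control. Other APL unigenes were called in both directions. Ob_26572 and Ob_31106 had log2 changes of 1.72 and 1.99, and Ob_17753 and Ob_17754, the lower calls of the list, -0.98 and -1.18. The APL matches had expectation values from 6e-08 to 5e-98, so that some may be other MYB proteins. The list also holds the CALS7 unigenes, no unigene of it was named SUC2 or SEO, and its part in the callose synthase result was not tested. Markers of dividing cells summed to 395 and 402 FPKM after chilling, against 405 and 401 FPKM in the control, with 2 of 15 tested lower and none higher by limma (6 lower and 1 higher at an unadjusted p under 0.05). The largest share of that sum was CYCB1-2 (Ob_18853), at 234 and 243 FPKM after chilling and 213 and 213 FPKM in the control, and 12 of the 15 had a log2 change below 0. Their part was not tested either.

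**Figure D2:**
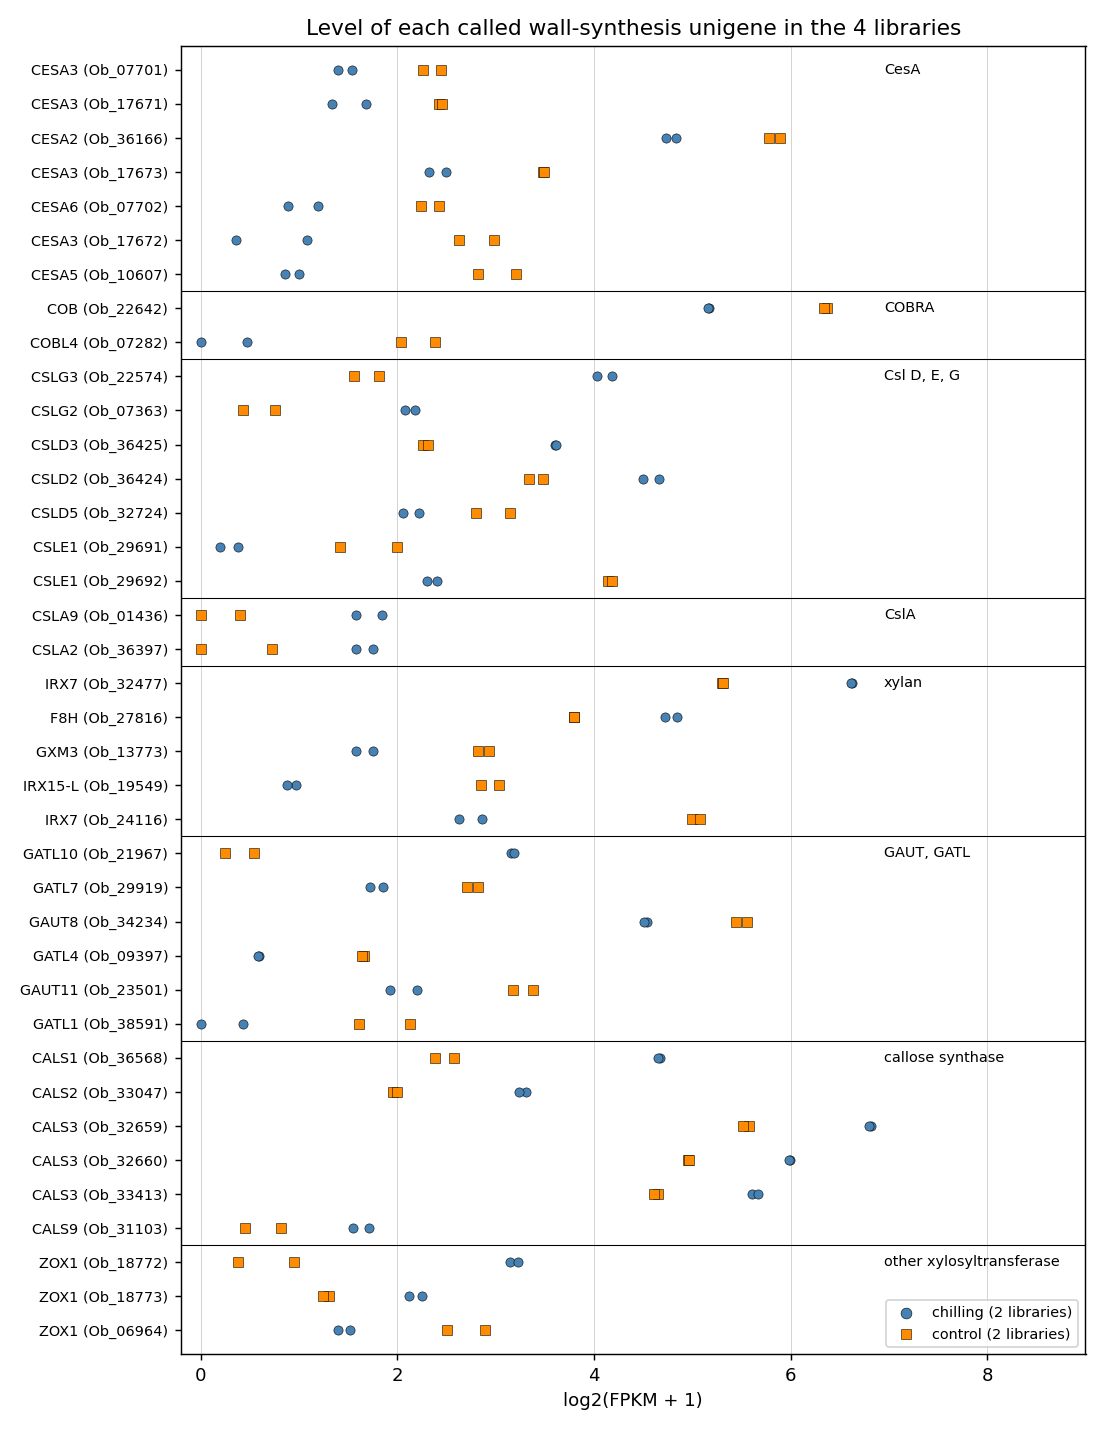
Level on the log2(FPKM + 1) scale of the 38 called wall-synthesis unigenes in the 4 libraries, grouped by family. Blue circles are the 2 chilling libraries and orange squares the 2 control libraries. The 2 groups do not overlap in these unigenes, which follows from how they were called. Among all tested unigenes both chilling libraries lay above the control libraries in 41.7% and below in 40.3%.

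The summed level of the CesA family was lower after chilling. Its 50 unigenes summed to 446 and 440 FPKM after chilling, against 552 and 535 FPKM in the control. Of 46 tested, 7 were lower, a share of 15.2% that is close to the 13.8% of all tested unigenes, and none was higher, against 11.9% of all. At an unadjusted p under 0.05 from limma 20 were lower and 7 higher, against 33.4% and 34.2% of all. The median log2 change was -0.35. The absence of higher calls depended on the setting. Under TPM 5 were lower and 3 were higher, with a ratio of summed levels of 0.922 (0.814 in FPKM). There were 12 lower and 1 higher at an adjusted p of 0.05, 5 lower and 1 higher without grass and non-plant matches, and 2 lower and 1 higher without control replicate 1. The 3 called higher under TPM, named here after their values were seen, were CESA2 (Ob_07216) and CESA9 (Ob_13889 and Ob_21170), with log2 changes of 1.17, 0.72 and 0.80 in FPKM.

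The largest decreases of the family were in single unigenes matched to CESA3 and CESA5. CESA5 (Ob_10607), a primary-wall subunit, had 0.81 and 1.00 FPKM after chilling, against 8.21 and 6.09 FPKM in the control (log2 change -2.09 ± 0.19, adjusted p = 1.2e-04, limma). CESA3 (Ob_17672), an obligate subunit of the primary-wall complex in Arabidopsis, had 1.12 and 0.28 FPKM after chilling, against 6.92 and 5.16 FPKM in the control (log2 change -2.08 ± 0.28, adjusted p = 7.8e-04). Its neighbours in the assembly numbering, Ob_17671 and Ob_17673, matched the same CESA3 protein and were lower as well, with log2 changes of -0.93 and -1.08. Neighbouring unigenes with the same match may be pieces of 1 gene, so these 3 calls need not be 3 genes. Over the whole set 77 of the 199 unigenes had a family member at the adjacent number. Other unigenes matched to the same CESA5 and CESA3 proteins, named after their values were seen, changed less. The CESA5 unigenes Ob_21171 and Ob_36279 had log2 changes of -0.12 and 0.02 (adjusted p = 0.67 and 0.93, limma). CESA3 (Ob_17197) had 16.84 and 15.3 FPKM after chilling, against 21.18 and 20.95 FPKM in the control (log2 change -0.37, adjusted p = 0.0039). CESA3 (Ob_35744) had a log2 change of -0.46 (adjusted p = 0.016).

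CESA2 (Ob_36166), another primary-wall subunit, was the most abundant CesA that was called, with 27.5 and 25.5 FPKM after chilling, against 58.4 and 53.8 FPKM in the control (log2 change -1.05 ± 0.06, adjusted p = 1.4e-05, limma). Its ratio was close to the threshold, and the call was lost under TPM. The remaining calls were of 2 unigenes with a best match in rice, CESA6 (Ob_07702), at 1.29 and 0.85 FPKM after chilling and 4.37 and 3.74 FPKM in the control, and CESA3 (Ob_07701), at 1.63 and 1.90 FPKM after chilling and 4.46 and 3.81 FPKM in the control. Only the CESA5 call was kept in all alternatives that tested it, and 5 of the 7 calls were lost when some single library was left out. The number of lower CesA unigenes without 1 library was 2 without control replicate 1, 2 without control replicate 2, 4 without chilling replicate 1 and 3 without chilling replicate 2.

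The most abundant CesA unigenes changed less than 2-fold. Ob_35487, whose best match is a CESA1 of rice, had 107 and 108 FPKM after chilling, against 112 and 111 FPKM in the control (log2 change -0.05, adjusted p = 0.12, limma). CESA1 (Ob_34190), matched to Arabidopsis, had 45.3 and 45.8 FPKM after chilling, against 67.0 and 69.0 FPKM in the control. Its groups did not overlap and its adjusted p was 2.5e-05, but its log2 change was only -0.57.

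The CesA unigenes were also divided, after their values had been seen and without a test, by the wall type of the matched protein. CESA4, CESA7 and CESA8 of Arabidopsis and CESA4, CESA7 and CESA9 of rice belong to secondary walls, and the other matches were counted as primary. All 7 calls fell among the 35 tested unigenes of the primary type, which summed to 374 and 373 FPKM after chilling, against 491 and 473 FPKM in the control. The 12 unigenes of the secondary type summed to 72.0 and 67.3 FPKM after chilling, against 61.4 and 62.4 FPKM in the control. None of the 11 tested was called by limma, and at an unadjusted p under 0.05 the counts were 3 higher and 1 lower, against 34.2% and 33.4% of all tested unigenes. The median log2 change of the secondary type was -0.03, against -0.48 for the primary type. The primary type held 14 unigenes with a best match in a grass, described below, and the secondary type 1. Without these, the medians were -0.03 for the secondary and -0.39 for the primary type, with 5 of 24 tested primary unigenes lower. Under TPM the primary type had 3 higher and 5 lower, and the secondary type had no calls. The difference between the types was not tested. Markers of xylem summed to 157 and 153 FPKM after chilling, against 144 and 150 FPKM in the control, with 1 of 8 tested unigenes higher and 2 lower.

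**Figure D3:**
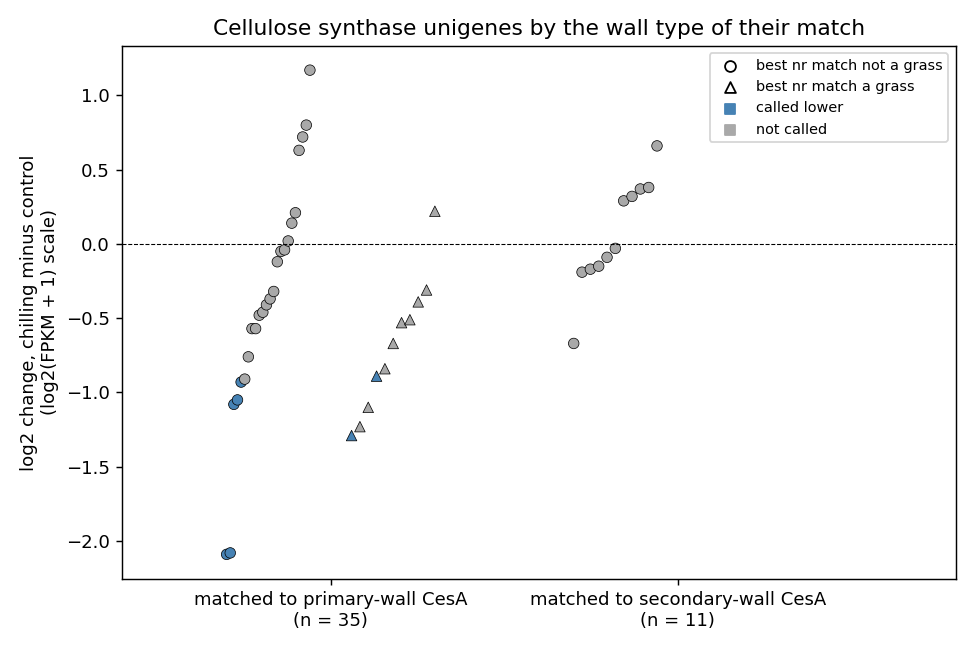
Log2 change (chilling minus control, of log2(FPKM + 1)) of the 46 tested CesA unigenes, by the wall type of the matched protein. Triangles are unigenes with a best nr match in a grass, circles are the others, and blue marks the 7 called lower, all of the primary type.

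In the wall-synthesis set 34 unigenes had their best match in nr, the protein database, in a grass, 15 of them CesA and 11 callose synthases. They were weakly expressed, with a median of 0.93 FPKM, and 15 were tested. Their summed level was 23.2 and 26.4 FPKM after chilling, against 51.9 and 57.1 FPKM in the control. No such unigene was higher, 2 were lower by limma, and at an unadjusted p under 0.05 the counts were 0 higher and 8 lower. Over the whole assembly 3.60% of tested unigenes with a grass match were higher and 15.3% were lower, and 8.09% and 44.3% at the unadjusted p. Without the grass matches, the wall-synthesis set had 17 higher and 19 lower of 149 tested, with a median of -0.04, and the CesA median was -0.15. Whether these sequences came from the basil was not tested.

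COBRA proteins are anchored at the cell surface and are needed in Arabidopsis for the orderly deposition of cellulose. Their 10 unigenes summed to 107 and 101 FPKM after chilling, against 173 and 170 FPKM in the control. Of 9 tested, 2 were lower (22.2%, against 13.8% of all tested unigenes) and none higher (against 11.9%). At an unadjusted p under 0.05 from limma 6 were lower and 0 higher, against 33.4% and 34.2% of all tested unigenes. COB (Ob_22642) had 34.9 and 34.7 FPKM after chilling, against 82.0 and 79.8 FPKM in the control. Both chilling libraries were thus far below both control libraries, and the replicates of a group were close to each other. The log2 change was -1.19 ± 0.04 (adjusted p = 8.3e-07, limma), and the call was kept in all 14 alternatives. COBL4 (Ob_07282), the COBRA-like protein of secondary walls, had 0.00 and 0.39 FPKM after chilling, against 3.11 and 4.21 FPKM in the control (log2 change -1.97 ± 0.25, adjusted p = 6.0e-04), a call that was lost without control replicate 1, control replicate 2 or chilling replicate 1. Another COBL4 unigene, Ob_17471, named after its values were seen, was not called. It had 2.06 and 1.69 FPKM after chilling, against 3.82 and 2.65 FPKM in the control (log2 change -0.55, adjusted p = 0.051, limma). Its match had an expectation value of 0, against 3e-33 for Ob_07282. The second abundant COB unigene, Ob_25264, had 45.8 and 42.5 FPKM after chilling, against 56.2 and 55.8 FPKM in the control (log2 change -0.34, adjusted p = 9.8e-04), under 2-fold.

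The cellulose synthase-like proteins of the D, E and G groups held calls in both directions. Of 17 tested, 4 were higher (23.5%, against 11.9% of all tested unigenes) and 3 were lower (17.6%, against 13.8%). The median was -0.03. The count of lower calls was 2 without control replicate 1 and 1 without control replicate 2 or either chilling library, against 3 or 4 higher calls in each of these settings. CSLG3 (Ob_22574) had 17.2 and 15.3 FPKM after chilling, against 1.95 and 2.52 FPKM in the control (log2 change 2.42 ± 0.13, adjusted p = 1.3e-05, limma). CSLG2 (Ob_07363) was also higher, at 3.21 and 3.52 FPKM after chilling and 0.35 and 0.69 FPKM in the control, a call that was lost without control replicate 1 or either chilling library, while the abundant CSLG2 unigene Ob_30912 had 23.7 and 23.7 FPKM after chilling and 35.6 and 35.7 FPKM in the control (log2 change -0.57, adjusted p = 8.8e-05). Unigenes with the same match therefore lay on opposite sides of 0.

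CSLD proteins make wall glucans in cells that grow at the tip and at the division plane in Arabidopsis. CSLD3 (Ob_36425) had 11.2 and 11.3 FPKM after chilling, against 3.78 and 3.97 FPKM in the control (log2 change 1.33 ± 0.11, adjusted p = 6.7e-05, limma). Its neighbour in the numbering, CSLD2 (Ob_36424), had 21.6 and 24.4 FPKM after chilling, against 9.09 and 10.2 FPKM in the control (log2 change 1.17 ± 0.09, adjusted p = 6.4e-05). Other CSLD2 unigenes, named after their values were seen, were not called. Ob_27566, matched to the same rice protein, had a log2 change of 0.07 (adjusted p = 0.62, limma). Ob_27567, matched to Arabidopsis, had one of -0.26 (adjusted p = 0.17). CSLD5 (Ob_32724) was lower, at 3.15 and 3.67 FPKM after chilling and 7.88 and 5.99 FPKM in the control (log2 change -0.84 ± 0.16, adjusted p = 0.0042, limma). This call was lost in 9 of the 14 alternatives, among them TPM and the removal of any of the 4 libraries. Its neighbour Ob_32725, also CSLD5 and named after its values were seen, had a log2 change of -0.60 (adjusted p = 0.0016), under 2-fold. Of 6 tested unigenes of the E group 2 were lower (33.3%, against 13.8% of all tested unigenes) and none higher (against 11.9%). At an unadjusted p under 0.05 from limma 4 were lower and 1 higher, against 33.4% and 34.2% of all. The 2 calls were of neighbours with the same match, which may be pieces of 1 gene. CSLE1 (Ob_29692) had 3.94 and 4.30 FPKM after chilling, against 16.7 and 17.2 FPKM in the control (log2 change -1.81 ± 0.10, adjusted p = 1.0e-05), and its neighbour Ob_29691, also CSLE1, had 0.15 and 0.30 FPKM after chilling and 1.67 and 2.99 FPKM in the control, a call that was lost without either chilling library. The most abundant E unigene, CSLE6 (Ob_18036), had 20.3 and 21.8 FPKM after chilling, against 14.1 and 13.1 FPKM in the control (log2 change 0.59, adjusted p = 6.1e-04), under 2-fold. The calls of CSLG3, CSLD3, CSLD2 and Ob_29692 were kept in all alternatives that tested them.

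Glucomannan synthases of the CslA group, which make the mannan backbone, summed to 195 and 186 FPKM after chilling, against 134 and 140 FPKM in the control, a ratio of 1.39. Of 11 tested unigenes 2 were higher (18.2%, against 11.9% of all tested unigenes) and none was lower (against 13.8%). At an unadjusted p under 0.05 from limma 6 were higher and 0 lower, against 34.2% and 33.4% of all tested unigenes. The calls were of weakly expressed unigenes. CSLA9 (Ob_01436) had 1.98 and 2.60 FPKM after chilling, against 0.00 and 0.32 FPKM in the control (log2 change 1.51 ± 0.24, adjusted p = 0.0018, limma), and CSLA2 (Ob_36397) had 2.36 and 1.99 FPKM after chilling, against 0.00 and 0.65 FPKM in the control (log2 change 1.30 ± 0.29, adjusted p = 0.0074). Both calls were lost with a pseudocount of 0.1. That of CSLA9 was also lost without either control library, and that of CSLA2 was lost in 6 alternatives, among them the removal of control replicate 1 or of chilling replicate 2. The summed level followed the abundant unigenes instead. CSLA2 (Ob_34481) had 57.4 and 51.4 FPKM after chilling, against 29.4 and 32.0 FPKM in the control (log2 change 0.80 ± 0.07, adjusted p = 8.8e-05), which fell short of 2-fold in FPKM and passed it under TPM. CSLA2 (Ob_32085) had 39.1 and 39.1 FPKM after chilling, against 34.1 and 38.1 FPKM in the control (log2 change 0.11, adjusted p = 0.15).

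**Figure D4:**
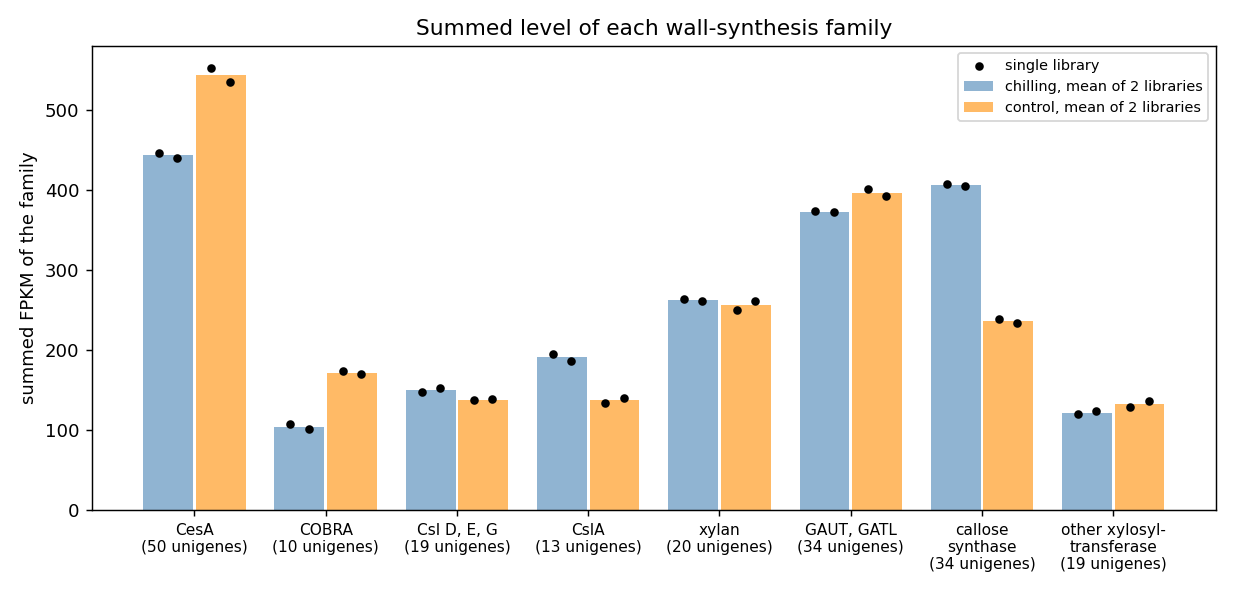
Summed FPKM of all unigenes of each wall-synthesis family. Bars are means of the 2 libraries of a treatment, chilling left and control right of each pair, and black points are the single libraries. Callose synthases stand at 407 and 405 FPKM after chilling against 238 and 233 FPKM in the control, and CesA at 446 and 440 FPKM against 552 and 535 FPKM.

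Xylan is built by the IRX9, IRX10 and IRX14 glycosyltransferases, started or ended by IRX7 and its relatives, and methylated on its glucuronic acid side chains by GXM enzymes. The 20 xylan unigenes summed to 264 and 261 FPKM after chilling, against 250 and 261 FPKM in the control. Of 18 tested, 2 were higher (11.1%, against 11.9% of all tested unigenes) and 3 were lower (16.7%, against 13.8%). The near-equal totals concealed opposite changes of the 2 IRX7 unigenes, both matched to the same Arabidopsis protein. IRX7 (Ob_32477) had 97.6 and 96.9 FPKM after chilling, against 38.5 and 38.9 FPKM in the control (log2 change 1.31 ± 0.03, adjusted p = 3.4e-07, limma). IRX7 (Ob_24116) had 5.20 and 6.25 FPKM after chilling, against 30.9 and 32.7 FPKM in the control (log2 change -2.29 ± 0.10, adjusted p = 3.6e-06). Neither pair of groups came near to overlapping, and both calls were kept in all 14 alternatives.

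F8H (Ob_27816), the close homologue of IRX7, had 27.7 and 25.4 FPKM after chilling, against 12.9 and 12.9 FPKM in the control (log2 change 0.99 ± 0.07, adjusted p = 3.6e-05, limma), and lost its call without chilling replicate 1. IRX15-L (Ob_19549), a protein needed for normal xylan in Arabidopsis, had 0.96 and 0.84 FPKM after chilling, against 6.20 and 7.22 FPKM in the control (log2 change -2.02 ± 0.16, adjusted p = 7.4e-05). Another IRX15-L unigene, Ob_07465, named after its values were seen, had 2.67 and 1.55 FPKM after chilling, against 2.32 and 1.97 FPKM in the control (log2 change -0.04, adjusted p = 0.9, limma). A further one, Ob_00080, was too weak to be tested. GXM3 (Ob_13773) had 2.37 and 1.98 FPKM after chilling, against 6.64 and 6.06 FPKM in the control (log2 change -1.21 ± 0.15, adjusted p = 5.1e-04), and lost its call whichever of the 4 libraries was left out. The more abundant GXM1 (Ob_19440) had 22.5 and 23.3 FPKM after chilling, against 36.9 and 36.5 FPKM in the control, which passed the adjusted p (5.4e-05) but not the 2-fold threshold. No unigene matched to IRX9, IRX10, IRX14 or their like-named relatives, which elongate the backbone, was called. Few of them were tested, and 25.6% of all tested unigenes were called, so no difference can be read from this. In the whole xylan family 5 were higher and 7 lower at an unadjusted p under 0.05 from limma, against 34.2% and 33.4% of all. IRX14 (Ob_27715), IRX9H (Ob_27516) and IRX9 (Ob_36148), named after their values were seen, passed the adjusted p but not the 2-fold threshold. Their log2 changes were -0.71, -0.55 and 0.59 (adjusted p = 3.3e-04, 0.003 and 0.0022, limma).

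Pectin synthesis was represented by 34 unigenes of galacturonosyltransferases (GAUT), which build homogalacturonan, and of the related GATL proteins. They summed to 373 and 372 FPKM after chilling, against 401 and 392 FPKM in the control, a ratio of 0.939, which became 1.06 under TPM. Of 27 tested, 1 was higher (3.70%, against 11.9% of all tested unigenes) and 5 were lower (18.5%, against 13.8%). Under TPM 2 were higher and 4 lower, against 14.7% and 10.5% of all tested unigenes. The one higher in FPKM was GATL10 (Ob_21967), with 7.93 and 8.10 FPKM after chilling, against 0.19 and 0.46 FPKM in the control. Control levels this low leave the size of the ratio uncertain, though both chilling libraries were far above both control libraries. The log2 change was 2.77 ± 0.18 (adjusted p = 2.6e-05, limma), the largest of the wall-synthesis set, and the call was kept in all alternatives that tested it.

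Among the lower unigenes, GAUT8 (Ob_34234), needed for normal homogalacturonan and cell adhesion in Arabidopsis, was the most abundant, with 22.3 and 21.8 FPKM after chilling, against 42.5 and 46.2 FPKM in the control (log2 change -0.97 ± 0.06, adjusted p = 1.6e-05, limma). It lay at the 2-fold threshold and lost its call under TPM and median ratio scaling, and without control replicate 2 or chilling replicate 2. GAUT11 (Ob_23501) had 2.81 and 3.61 FPKM after chilling, against 9.45 and 8.07 FPKM in the control (log2 change -1.22 ± 0.15, adjusted p = 5.4e-04). Its neighbour Ob_23502, also GAUT11 and named after its values were seen, was not called. That unigene had 4.58 and 4.67 FPKM after chilling, against 5.18 and 6.47 FPKM in the control (log2 change -0.27, adjusted p = 0.13, limma). GATL1 (Ob_38591), which takes part in xylan rather than pectin synthesis in Arabidopsis, had 0.35 and 0.00 FPKM after chilling, against 2.05 and 3.36 FPKM in the control. GATL4 (Ob_09397) had 0.51 and 0.50 FPKM after chilling, against 2.16 and 2.12 FPKM in the control, and GATL7 (Ob_29919) had 2.31 and 2.61 FPKM after chilling, against 5.53 and 6.07 FPKM in the control. All 3 GATL calls and that of GAUT11 were lost when some single library was left out. Without control replicate 1, control replicate 2, chilling replicate 1 and chilling replicate 2 the family had 1, 0, 1 and 0 lower unigenes.

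Of the 5 most abundant pectin unigenes, GAUT8 was called and the others were not. GATL3 (Ob_29918) had 43.0 and 43.6 FPKM after chilling, against 50.2 and 50.1 FPKM in the control (log2 change -0.21, adjusted p = 0.0033, limma). GAUT12 (Ob_36190), which acts in xylan synthesis in Arabidopsis, had 33.6 and 33.3 FPKM after chilling, against 47.9 and 43.4 FPKM in the control (log2 change -0.44, adjusted p = 6.8e-04). GAUT1 (Ob_33687), the catalytic core of the homogalacturonan synthase and named here for that role after its values were seen, had 39.7 and 36.8 FPKM after chilling, against 29.7 and 26.6 FPKM in the control (log2 change 0.43, adjusted p = 0.0018). GATL8 (Ob_33892), also named after its values were seen, had 39.2 and 40.8 FPKM after chilling, against 22.1 and 23.1 FPKM in the control (log2 change 0.80, adjusted p = 2.8e-05), which is under 2-fold in FPKM, and it passed under TPM.

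The term xylosyltransferase also took in 19 unigenes that are not xylan synthases. Of these, 11 matched the animal type of xylosyltransferase, which in animals starts proteoglycan chains, 2 the enzyme that puts xylose on N-glycans, 1 a pectin xylosyltransferase (MGP4) and 5 the zeatin O-xylosyltransferase ZOX1, an enzyme of cytokinin storage. Only ZOX1 unigenes were called, all 3 of those tested. Among the 17 tested of the whole group, 11.8% were thus higher and 5.88% lower, against 11.9% and 13.8% of all tested unigenes. Ob_18772 had 7.88 and 8.39 FPKM after chilling, against 0.93 and 0.30 FPKM in the control (log2 change 2.53 ± 0.22, adjusted p = 1.1e-04, limma), and its neighbour Ob_18773 had 3.77 and 3.34 FPKM after chilling, against 1.48 and 1.37 FPKM in the control (log2 change 0.91). Ob_06964 was lower, at 1.87 and 1.63 FPKM after chilling and 4.69 and 6.41 FPKM in the control (log2 change -1.24). All 3 of these calls were lost when some single library was left out. The most abundant of the 19, Xylt1 (Ob_26281), had 14.7 and 15.6 FPKM after chilling, against 17.9 and 18.5 FPKM in the control (adjusted p = 0.019, limma). XYLT1 (Ob_25266) had 15.4 and 14.9 FPKM after chilling, against 14.4 and 16.3 FPKM in the control, with overlapping groups.

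The precision of these values varied with level. Of the 164 tested unigenes, the chilling libraries both lay above the control libraries in 54 and both below in 76, against 41.7% and 40.3% of all tested unigenes. In 14 of the 38 called unigenes at least 1 library was under 1 FPKM. Leaving out any single library reduced the calls, to 13 higher and 8 lower without control replicate 1, 14 and 6 without control replicate 2, 9 and 9 without chilling replicate 1, and 10 and 8 without chilling replicate 2. The share called among all tested unigenes fell in the same settings, to 14.4%, 14.3%, 12.5% and 12.2%. Of the 38 calls, 14 were kept in all alternatives that tested them and 23 were lost without some library. No called unigene changed direction in any alternative. The call rule all but fixes this, since groups that differ 2-fold without overlap keep their order when 1 library is dropped. It therefore says nothing about stability. Members with similar sequences, such as the 9 unigenes of CALS3 or the CesA unigenes, may share reads, and how reads were divided among them could alter single values.

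The enzymes that supply these synthases with sugar nucleotides were examined as a separate list of 107 unigenes, which summed to 3348 and 3351 FPKM after chilling, against 4145 and 4172 FPKM in the control. Of 91 tested, 8 were higher (8.79%, against 11.9% of all tested unigenes) and 19 were lower (20.9%, against 13.8%). Under TPM 10 were higher and 16 lower, against 14.7% and 10.5% of all tested unigenes. MIOX4 (Ob_21276), an inositol oxygenase that opens a route to UDP-glucuronic acid, had 74.0 and 72.7 FPKM after chilling, against 746 and 763 FPKM in the control (log2 change -3.34 ± 0.02, adjusted p = 1.7e-09, limma). The UDP-glucuronate 4-epimerase GAE1, which makes the donor for pectin, was higher, with Ob_19651 at 106 and 103 FPKM after chilling and 22.4 and 20.7 FPKM in the control (log2 change 2.23 ± 0.05, adjusted p = 2.0e-07), and Ob_19653 at 18.5 and 20.8 FPKM after chilling and 2.19 and 0.36 FPKM in the control.

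GDP-mannose 3,5-epimerase, also an enzyme of vitamin C synthesis, had unigenes on both sides of 0. Ob_17152 had 71.3 and 69.7 FPKM after chilling, against 251 and 250.4 FPKM in the control (log2 change -1.81 ± 0.02, adjusted p = 2.6e-08, limma), whereas Ob_22780, the most abundant of the list, had 519 and 521 FPKM after chilling, against 404 and 408 FPKM in the control (log2 change 0.36, under 2-fold). Without 1 library the list had 12 to 14 calls instead of 27, with 14 without either control library, 13 without chilling replicate 1 and 12 without chilling replicate 2.

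Proteins that assemble or decorate the polymers, such as the TBL acetyltransferases and the endoglucanase KORRIGAN (KOR), made a list of 117 unigenes. Of 105 tested, 9 were higher (8.57%) and 16 lower (15.2%), against 11.9% and 13.8% of all tested unigenes. Under TPM 11 were higher and 9 lower, against 14.7% and 10.5% of all tested unigenes. TBL37 (Ob_34376) had 95.6 and 94.5 FPKM after chilling, against 22.3 and 19.9 FPKM in the control (log2 change 2.12 ± 0.06, adjusted p = 4.6e-07, limma). ESK1 (Ob_29520), the main xylan acetyltransferase of Arabidopsis, had 8.43 and 9.66 FPKM after chilling, against 39.2 and 39.1 FPKM in the control (log2 change -2.0 ± 0.08, adjusted p = 2.3e-06). KOR (Ob_06578), which acts with the CesA complex, had 0.75 and 0.60 FPKM after chilling, against 9.13 and 9.61 FPKM in the control (log2 change -2.63 ± 0.15, adjusted p = 1.5e-05). TBL38 (Ob_14422) had 2.79 and 1.97 FPKM after chilling and was listed at 0 in both control libraries. The chitinase-like protein CTL1 (Ob_23790), an Arabidopsis protein of cellulose assembly and the most abundant of the list, had 377 and 368 FPKM after chilling, against 361 and 360 FPKM in the control (log2 change 0.05, adjusted p = 0.059). Without 1 library the list had 10 to 13 calls instead of 25, with 13 without control replicate 1, 12 without control replicate 2 and 10 without either chilling library.

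Regulators of the secondary wall formed a small list of 17 unigenes. Of 14 tested, 3 were lower (21.4%, against 13.8% of all tested unigenes) and none higher (against 11.9%). At an unadjusted p under 0.05 from limma 5 were lower and 2 higher, where 33.4% and 34.2% of all tested unigenes passed. MYB46 (Ob_17637), a master switch of the secondary wall in Arabidopsis, had 26.5 and 26.3 FPKM after chilling, against 203 and 208 FPKM in the control (log2 change -2.92 ± 0.03, adjusted p = 1.2e-08). Its Swiss-Prot match had an expectation value of 2e-12, so that it may be another MYB protein. NAC043 (Ob_11490), the NST1 regulator of fibres, was listed at 0 in both chilling libraries and had 2.49 and 2.14 FPKM in the control.

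Wall-loosening and pectin-cutting enzymes made a list of 185 unigenes. Of 166 tested, 23 were higher (13.9%) and 22 lower (13.3%), against 11.9% and 13.8% of all tested unigenes. Under TPM 34 were higher and 20 lower, against 14.7% and 10.5% of all tested unigenes. Endoglucanase 6 (Ob_12032) had 27.8 and 28.4 FPKM after chilling, against 0.99 and 0.98 FPKM in the control (log2 change 3.87 ± 0.11, adjusted p = 4.6e-07, limma). A pectate lyase (Ob_23094) had 23.7 and 22.8 FPKM after chilling, against 1.34 and 1.58 FPKM in the control. The expansins, which loosen walls in growing cells, gave the largest decreases of the list, with EXPA4 (Ob_30698) at 0.27 and 0.27 FPKM after chilling and 5.62 and 6.83 FPKM in the control, and EXPA4 (Ob_19984) at 10.1 and 12.0 FPKM after chilling and 64.7 and 62.2 FPKM in the control. XTH9 (Ob_28158), a xyloglucan-remodelling enzyme and the most abundant of the list, had 458 and 460 FPKM after chilling, against 622 and 610 FPKM in the control (log2 change -0.42, under 2-fold). Without control replicate 1, chilling replicate 1 or chilling replicate 2 the list had 27, 24 and 24 calls instead of 45.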

How the data were processed

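Leaf RNA-seq libraries were analysed, 2 after chilling and 2 from control plants. The authors trimmed and pooled the reads, assembled them with Trinity, took the longest isoform of a gene to be its unigene, annotated unigenes by BLASTX (expectation value 1e-05) and deposited FPKM values from RSEM, rounded to 2 decimals. The deposited lists of regulated genes, with the authors' fold changes, p-values and FDR and 8 repeated columns of sample values, were not used. Without read counts, the depth under each value is unknown. Among weak unigenes whose replicate values were already close, the median ratio of replicate 1 over replicate 2 was 1.01 (chilling) or 1.02 (control). That selection holds the ratio near 1, so it does not show how depth compared between replicates.

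Limma 3.58.1 (R 4.3.3) was fitted to log2(FPKM + 1) with an intensity trend for unigenes with a mean of at least 1 FPKM, with 2 residual degrees of freedom and a prior of 4.41. Fold changes on this scale understate the change of low unigenes. The thresholds (adjusted p 0.01, 2-fold) are those of the study. An exact permutation test of 2 against 2 libraries cannot go below p = 0.333 and was not used. Python 3.11.15, pandas 2.3.3, numpy 2.4.6 and matplotlib 3.10.9 handled tables and figures.

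The members, gene lists, marker lists and tests were chosen with earlier results of these data known. Lists were searched as words in the annotation, and those on gene names were made sensitive to case after unrelated matches were seen. Unigenes were named by rule: in each family the 3 largest called changes of either direction and the 2 highest means, and in each other list the 2 largest of either direction and the 1 highest mean. Those named outside the rule are called members, given with their families, or are identified in the text. Marker lists covered mesophyll, xylem, phloem, guard cells, epidermis, glandular trichomes and dividing cells. No sequences of these unigenes were used here.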

Additional observations from a re-analysis of the deposited data

How the results depend on the processing

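In 14 alternative settings, the main counts of 17 higher and 21 lower wall-synthesis unigenes moved by over 1.5 times with a mean of at least 5 FPKM, where fewer unigenes were tested, to 10 higher and 8 lower. In the same setting the sugar nucleotide list had 17 calls, the assembly and decoration list 12 and the wall loosening list 26. Leaving out 1 library, which leaves its group with a lone sample assumed to vary like the other group, gave 9 to 14 higher and 6 to 9 lower wall-synthesis unigenes, 12 to 14 sugar nucleotide calls, 10 to 13 assembly and decoration calls and 24 to 31 wall loosening calls. With replicate number as a block in limma, 15 were higher and 19 were lower, and CALS9 (Ob_31103), CSLA2 (Ob_36397), CSLD5 (Ob_32724) and CESA3 (Ob_07701) were no longer called. The numbers share no stated litter, batch or plant, and deviations of same-numbered libraries had a correlation of 0.0076. No called unigene changed sign in any setting, which the call rule all but fixes in advance. Of the 12 unigenes named by rule that were not called, 2 changed sign. XYLT1 (Ob_25266) moved from -0.01 to 0.16 under TPM, and to 0.07 and 0.01 without control replicate 2 and chilling replicate 2. CESA1 (Ob_35487) moved from -0.05 to 0.13 under TPM. What limits precision is that each group has 2 libraries and that FPKM hold no depth, so weak unigenes carry the least certain calls.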

Other observations

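Beside the wall genes, the marker lists of other leaf cell types gave the following values, which belong to no comparison above. Guard cell markers summed to 49.5 and 43.9 FPKM after chilling, against 85.6 and 85.9 FPKM in the control, with 6 of 11 tested unigenes lower and none higher by limma (9 lower and 1 higher at an unadjusted p under 0.05). Epidermis markers summed to 774 and 791 FPKM after chilling, against 783 and 809 FPKM in the control, with 4 of 31 tested higher and 2 lower. Glandular trichome markers, enzymes of the aroma compounds of basil, summed to 475 and 475 FPKM after chilling, against 523 and 514 FPKM in the control, with 2 of 13 tested higher and 2 lower. Of the 15 tested markers of dividing cells, 2 were lower and none was higher by limma, and at an unadjusted p under 0.05 the counts were 6 lower and 1 higher.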
